A study of Drosophila melanogaster with 6 samples.

Results

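The genes described here encode the subunits of the *Drosophila* proteasome. They were chosen by symbol alone, as every gene of the raw count table whose name begins with Prosalpha or Prosbeta, or with Rpn or Rpt and a number, which gave 47 of the 17433 genes listed. Of these, 32 were somatic-type genes: 7 of the alpha ring, 7 of the beta ring, 6 ATPases (Rpt), 4 other subunits of the base (Rpn1, Rpn2, Rpn10 and Rpn13) and 8 of the lid. The other 15 were testis-type paralogs, meaning members with a suffix T or R. No testis sample was in the series, so that name rests on the suffix.

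RNA was sequenced from nuclei of eye imaginal discs late in the third larval instar, in 3 GMR>Rh-1G69D and 3 WT libraries. GMR>Rh-1G69D animals carried *GMR-GAL4*, *uas-Rh-1G69D* and *uas-EGFP::Msp300-KASH*. WT animals carried *GMR-GAL4* and *uas-EGFP::Msp300-KASH*, so the driver and the nuclear envelope tag were present in both genotypes. Rh-1G69D is a misfolding mutant of the visual pigment Rhodopsin-1 that imposes stress on the endoplasmic reticulum (ER). *GMR-GAL4* is active behind the morphogenetic furrow, the front at which photoreceptors begin to form, and nuclei were pulled down by the EGFP tag, so the data cover the tagged cells and not the whole disc. Each library came from a separate pool of larvae.

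The proteasome degrades proteins that carry ubiquitin chains. Its core particle is a barrel of alpha rings, which gate the entry, and beta rings, which hold the proteolytic sites. The regulatory particle that caps it has a base, where ATPases unfold the substrate, and a lid, where ubiquitin is removed. In the ER-associated degradation pathway, misfolded ER proteins are pulled back into the cytosol and given to the proteasome. *Drosophila* has a further set of subunit genes, copies of the somatic ones, that are known for expression in the male germ line.

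Libraries held 21773452 to 25320418 counts in GMR>Rh-1G69D discs and 22169330 to 30884519 counts in WT discs. The library of WT replicate 3 stood apart from the other WT libraries: over all genes tested its correlation with the GMR>Rh-1G69D libraries on the log2 scale was 0.933 to 0.956, against 0.892 to 0.909 for WT replicates 1 and 2. Medians and counts of calls for the subunits, and counts of calls for the gene lists, are therefore also given without it. Of 12 markers of the eye disc behind the furrow, all 12 were detected and 8 passed the test as lower in GMR>Rh-1G69D. The 12 summed to 4829 to 7433 CPM (counts scaled to a common library size) in GMR>Rh-1G69D. In WT they summed to 7687 to 10870 CPM, where WT replicate 3 was the lowest. Most of this sum was *pros*, at 2919 to 5317 CPM in GMR>Rh-1G69D and 4508 to 5974 CPM in WT. It was not called (adjusted p = 0.405 by edgeR), so the sum does not give the level of the 8 called genes. The summed hemocyte markers (5 genes) were at 238 to 273 CPM in GMR>Rh-1G69D and 124 to 139 CPM in WT, and the summed muscle markers (4 genes) at 383 to 633 CPM in GMR>Rh-1G69D and 258 to 294 CPM in WT. Of these, 1 hemocyte and 2 muscle genes passed the test as higher. Fat body markers (5 genes) summed to 57.1, 10.9 and 43.6 CPM in GMR>Rh-1G69D replicates 1, 2 and 3, against 33.1, 39.4 and 840 CPM in WT replicates 1, 2 and 3, so WT replicate 3 also stood apart from every other library in this list. Glial markers (3 genes) summed to 69.4 to 82.0 CPM in GMR>Rh-1G69D and 58.7 to 82.3 CPM in WT. In the fit of all libraries edgeR called no fat body or glial marker. Antennal disc markers (4 genes, 1 called as lower) summed to 294 to 316 CPM in GMR>Rh-1G69D and 289 to 409 CPM in WT. Over all tested genes, the fit of all libraries called 3.72% as lower and 1.24% as higher. Without WT replicate 3, edgeR called 11 of 12 eye disc markers and 2 of 4 antennal disc markers as lower. As higher it called 3 of 5 hemocyte, 3 of 4 muscle and 1 of 5 fat body markers, and it called no glial marker. That fit called 1305 genes as higher and 1199 as lower of 12206 tested. In bulk samples, fewer cells of a type and less RNA per cell cannot be told apart, and the part of these markers in the results below was not tested.

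Every somatic-type proteasome gene that could be tested had a higher fitted level in GMR>Rh-1G69D than in WT discs, but none passed the test in the full set of libraries. Of the 32 somatic-type genes, 31 had enough counts to be tested, and 31 of 31 had a log2 fold change above 0, where 52.5% of all 11818 tested genes did. The middle gene of the 31 had a log2 fold change of 0.69, which is 1.61-fold, against 0.04 over all tested genes. Single genes ranged between 0.24 for *Rpn2* and 0.99 for *Prosbeta4*, with standard errors of 0.21 to 0.34.

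The edgeR quasi-likelihood test with Benjamini-Hochberg adjustment called 0 of 31 somatic-type genes at an adjusted p under 0.05, where it called 1.24% of all tested genes as higher. The smallest adjusted p was 0.0577, for *Prosalpha5*. At an unadjusted p under 0.05 there were 23 of the 31, all of them higher, where 23.8% of all tested genes passed in either direction, 1297 as higher and 1514 as lower. DESeq2 called 5 of 31 as higher, all in the core particle (*Prosalpha2*, *Prosalpha5*, *Prosbeta4*, *Prosbeta5* and *Prosbeta7*), against 3.86% of all genes. Limma on the deposited normalized counts called 3 of 31 (2.01% of all genes as higher), and edgeR with a gene length correction called 0 of 31 (1.18%). Of all 37 proteasome genes tested, edgeR called 2, both paralogs and both lower, against 4.96% of all tested genes in either direction. The 31 genes act in 1 complex and were measured in the same 6 libraries, so they are not 31 separate observations of the genotype.

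These calls depended on WT replicate 3. In WT replicates 1 and 2, all 31 genes were below every GMR>Rh-1G69D library. WT replicate 3 was the highest WT library for 31 of 31 genes, and it was above the lowest GMR>Rh-1G69D library for 15 of them. Hence 16 of 31 genes had all GMR>Rh-1G69D libraries above all WT libraries, a pattern that 13.6% of all tested genes showed.

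Summed over the somatic-type genes, the level was 3762, 4131 and 4064 CPM in GMR>Rh-1G69D replicates 1, 2 and 3, against 1918, 2092 and 3667 CPM in WT replicates 1, 2 and 3. The means were 3985 ± 196 CPM in GMR>Rh-1G69D and 2559 ± 963 CPM in WT (SD, n = 3 each), a ratio of 1.56. The 3 stressed libraries lay close together and above every WT library, while WT replicate 3 was nearer to them than to the other WT libraries.

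**Figure D1:**
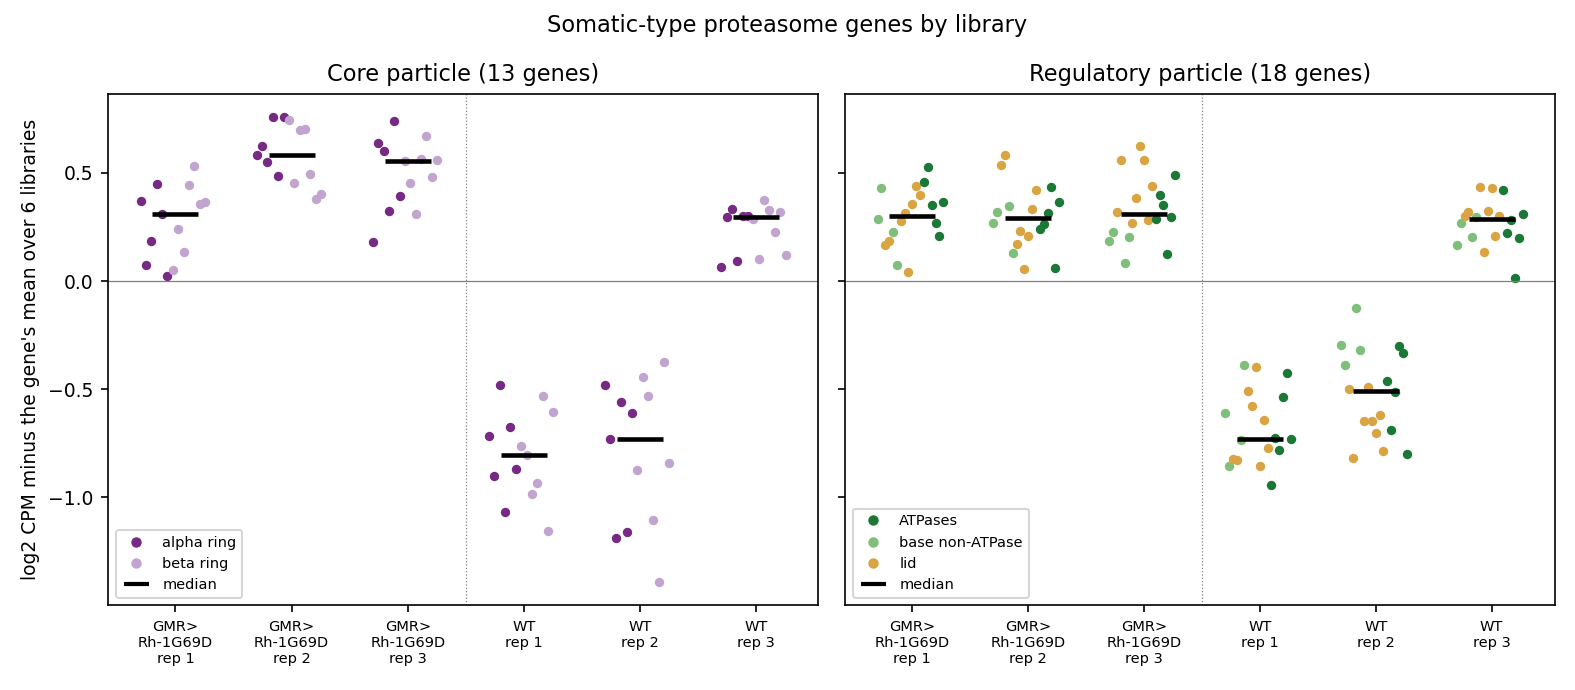
Each point is 1 somatic-type gene in 1 library, as its log2 CPM minus its own mean over the 6 libraries, with GMR>Rh-1G69D replicates 1 to 3 left of WT replicates 1 to 3. Black bars are medians over the genes. In WT replicates 1 and 2 the medians of the core particle are at -0.80 and -0.73, while WT replicate 3 is at 0.30, as high as GMR>Rh-1G69D replicate 1 at 0.31.

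The same order held within each particle. In the core particle the median deviation of a gene from its own mean was 0.31, 0.58 and 0.55 on the log2 scale in GMR>Rh-1G69D replicates 1, 2 and 3, and -0.80, -0.73 and 0.30 in WT replicates 1, 2 and 3. In the regulatory particle it was 0.30, 0.29 and 0.31 in GMR>Rh-1G69D and -0.73, -0.51 and 0.29 in WT. Over all tested genes these medians lay between -0.04 and 0.05 in every library, a balance that the scaling of the libraries sets, so the values are relative to the typical gene of each library.

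Without WT replicate 3, the edgeR test called 30 of the 31 genes as higher, where it called 10.7% of all 12206 genes tested in that fit. The exception was *Rpn13*, with an adjusted p of 0.0635. WT replicate 3 was the highest WT library for all 31 genes, so leaving it out widens the gap between genotypes for each. These calls are therefore no separate support for a difference. Log2 fold changes then ranged between 0.49 for *Rpn2* and 1.597 for *Prosbeta4*, with a median of 1.11. Leaving out WT replicate 1, WT replicate 2 or any GMR>Rh-1G69D library left 0 of 31 called, in fits that called 0.440 to 0.557% of all genes as higher, so these counts say little of the proteasome genes.

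Ribosomal RNA, which the library preparation is meant to remove, took up 15.3, 14.0 and 18.6% of counts in GMR>Rh-1G69D replicates 1, 2 and 3, against 12.1, 7.70 and 20.5% in WT replicates 1, 2 and 3. WT replicate 3 was thus the WT library with the highest share, and WT replicates 1 and 2 were below every GMR>Rh-1G69D library on this measure too. Its part in the levels of the proteasome genes was not tested.

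**Figure D2:**
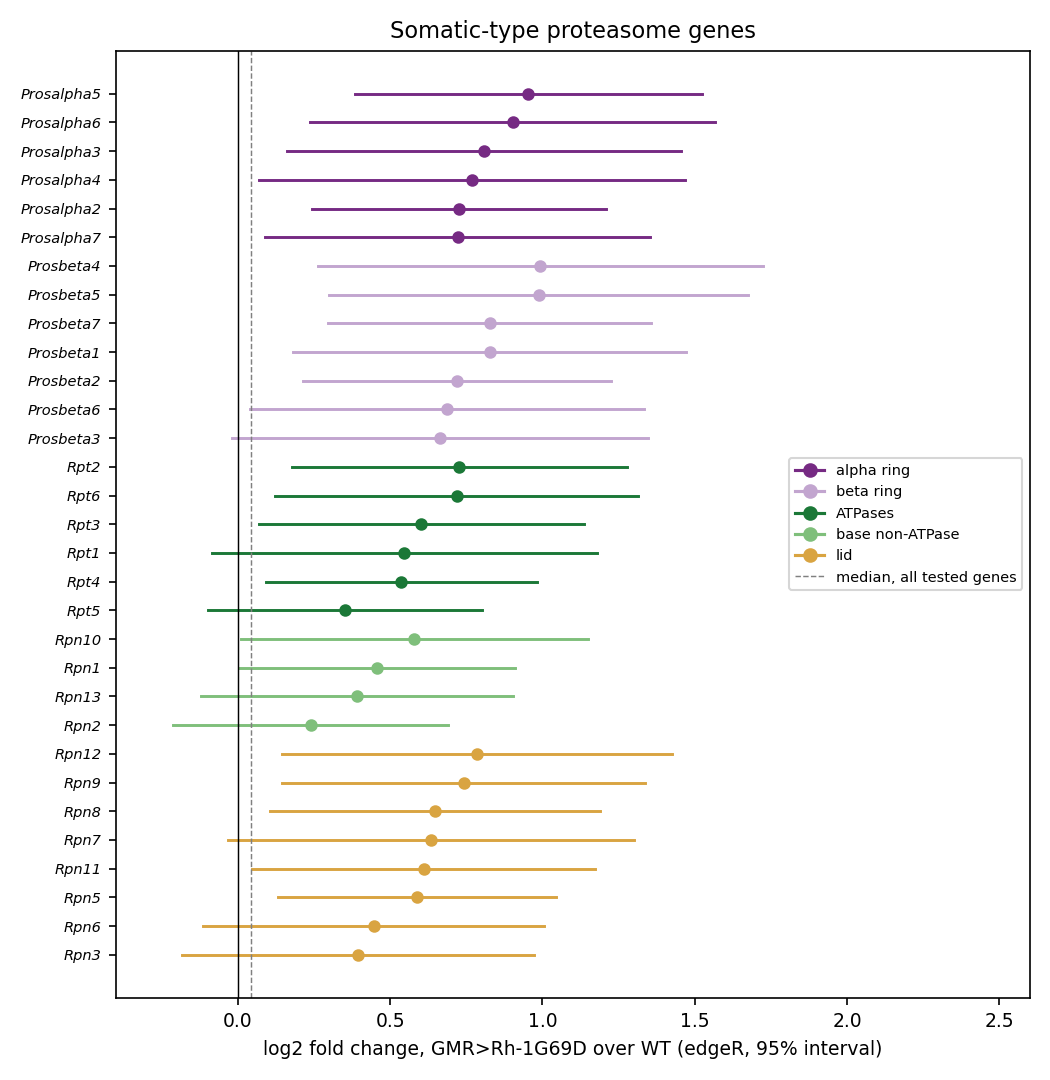
Points are log2 fold changes of the 31 tested somatic-type genes, GMR>Rh-1G69D over WT, and lines are 95% confidence intervals of the edgeR fit, grouped by subcomplex. All points are above 0, from 0.24 for *Rpn2* to 0.99 for *Prosbeta4*, and the genes of both rings lie at 0.66 or above.

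The core particle had a higher median fold change than the regulatory particle, a difference that was not tested. The log2 fold changes of the 13 tested core genes ranged between 0.66 and 0.99 around a median of 0.81. Those of the 18 regulatory genes ranged between 0.24 and 0.79 around a median of 0.58. At an unadjusted p under 0.05, 12 of 13 core genes and 11 of 18 regulatory genes were higher, and 8 genes of each particle had genotypes that did not overlap. Over all tested genes, 23.8% passed that p in either direction, and 13.6% had every GMR>Rh-1G69D library above every WT library.

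The difference between the particles was also seen within libraries. The summed CPM of the core divided by that of the regulatory particle was 0.636, 0.786 and 0.695 in GMR>Rh-1G69D replicates 1, 2 and 3, against 0.564, 0.540 and 0.612 in WT replicates 1, 2 and 3. The genotypes did not overlap in this ratio, and WT replicate 3 was again the WT library closest to the GMR>Rh-1G69D ones. Core genes were shorter, with a median length of 973 bases against 1589 in the regulatory particle and 1860 over all tested genes. With a correction for gene length the medians were 0.57 for the core, 0.40 for the regulatory particle and 0.04 for all tested genes, so the order of the particles was kept at a smaller size.

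In the alpha ring, whose N-terminal tails gate the entry to the barrel, the 6 tested genes had a median of 0.79 on the log2 scale, and of 1.27 without WT replicate 3. *Prosalpha5* was the highest, with 192, 238 and 176 CPM in GMR>Rh-1G69D replicates 1, 2 and 3, against 67.1, 95.5 and 150 CPM in WT replicates 1, 2 and 3. Its genotypes did not overlap, and WT replicate 1 was the lowest library. The log2 fold change was 0.95 ± 0.26 (SE), with a 95% confidence interval of 0.38 to 1.52 and an adjusted p of 0.0577 by edgeR. It passed in 6 of 16 alternative settings, with an adjusted p between 0.00301 and 0.190.

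*Prosalpha7* was the lowest of the ring, with 115, 192 and 149 CPM in GMR>Rh-1G69D and 62.1, 74.2 and 140 CPM in WT. WT replicate 3 lay above GMR>Rh-1G69D replicate 1, so the genotypes overlapped. The log2 fold change was 0.72 ± 0.29 (SE), with an adjusted p of 0.161 by edgeR.

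The 7 genes of the beta ring had a median of 0.83, close to that of the alpha ring, and of 1.17 without WT replicate 3, where the alpha ring was the higher. In 5 of them GMR>Rh-1G69D lay above WT without overlap, as in 13.6% of all tested genes. The catalytic subunits are *Prosbeta1*, *Prosbeta2* and *Prosbeta5*, whose sites cut after acidic, basic and hydrophobic residues. *Prosbeta5* was at 105, 102 and 115 CPM in GMR>Rh-1G69D replicates 1, 2 and 3, against 50.0, 27.6 and 84.5 CPM in WT replicates 1, 2 and 3. No WT library reached the lowest GMR>Rh-1G69D library, and the GMR>Rh-1G69D libraries differed by far less than the WT libraries. Its log2 fold change was 0.99 ± 0.32 (SE), with an adjusted p of 0.0931 by edgeR.

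*Prosbeta2* was at 107, 124 and 124 CPM in GMR>Rh-1G69D and 51.9, 66.6 and 97.2 CPM in WT. These did not overlap, and the log2 fold change was 0.72 ± 0.23 (SE, adjusted p = 0.0968 by edgeR). *Prosbeta1* was at 106, 173 and 151 CPM in GMR>Rh-1G69D and 60.7, 56.2 and 125 CPM in WT. For this gene WT replicate 3 was above GMR>Rh-1G69D replicate 1, and the log2 fold change was 0.83 ± 0.30 (SE, adjusted p = 0.125 by edgeR).

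The extremes of the ring were structural subunits without a proteolytic site. *Prosbeta4* was at 48.4, 58.0 and 52.7 CPM in GMR>Rh-1G69D and 18.6, 16.5 and 44.7 CPM in WT, without overlap. Its log2 fold change of 0.99 ± 0.34 (SE, adjusted p = 0.109 by edgeR) was the highest of the somatic-type genes and was 1.597 without WT replicate 3. *Prosbeta3*, the lowest of the ring at 0.66 ± 0.31 (SE, adjusted p = 0.222 by edgeR), was at 51.4, 75.9 and 58.0 CPM in GMR>Rh-1G69D and 23.7, 32.4 and 60.8 CPM in WT, and here WT replicate 3 exceeded 2 of the GMR>Rh-1G69D libraries.

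The ATPases form a ring of 6 related subunits that sits on the alpha ring. The median over the ring was 0.57, or 1.00 without WT replicate 3. For 4 of 6 genes GMR>Rh-1G69D lay above WT without overlap, against 13.6% of all tested genes. In yeast, the tails of both Rpt2 and Rpt5 dock into the alpha ring, and in these libraries the genes were the extremes of the group. *Rpt2* was at 135, 113 and 124 CPM in GMR>Rh-1G69D and 56.8, 58.3 and 110 CPM in WT, with a log2 fold change of 0.73 ± 0.25 (SE, adjusted p = 0.116 by edgeR). *Rpt5* was at 123, 111 and 131 CPM in GMR>Rh-1G69D and 79.1, 84.4 and 122 CPM in WT, with 0.35 ± 0.21 (SE, adjusted p = 0.322 by edgeR). The *Rpt2* values did not overlap between genotypes, whereas WT replicate 3 was above GMR>Rh-1G69D replicate 2 for *Rpt5*.

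The rest of the base holds the scaffold *Rpn2* and the ubiquitin receptors *Rpn1*, *Rpn10* and *Rpn13*, and its median was 0.42, or 0.66 without WT replicate 3. *Rpn2* was at 214, 222 and 234 CPM in GMR>Rh-1G69D and 155, 163 and 249 CPM in WT, where WT replicate 3 was the highest of all 6 libraries. The log2 fold change of 0.24 ± 0.21 (SE, adjusted p = 0.512 by edgeR) was the smallest of the somatic-type genes.

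*Rpn10*, the highest of the base, was at 87.9, 81.3 and 76.3 CPM in GMR>Rh-1G69D and 36.0, 49.8 and 78.5 CPM in WT (log2 fold change 0.58 ± 0.26 SE, adjusted p = 0.202 by edgeR). *Rpn1* was at 208, 206 and 194 CPM in GMR>Rh-1G69D and 112, 139 and 192 CPM in WT (0.46 ± 0.21 SE, adjusted p = 0.208 by edgeR). *Rpn13* was at 99.6, 108 and 90.2 CPM in GMR>Rh-1G69D and 51.1, 77.9 and 97.8 CPM in WT (0.39 ± 0.24 SE, adjusted p = 0.331 by edgeR). Of the receptors, *Rpn1* alone had genotypes that did not overlap, by a narrow margin, and WT replicate 3 lay within the GMR>Rh-1G69D range for the other two.

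The 8 lid genes had a median of 0.62, or 0.996 without WT replicate 3. In 3 of them GMR>Rh-1G69D lay above WT without overlap, against 13.6% of all tested genes. *Rpn12* was the highest, with 81.8, 108 and 106 CPM in GMR>Rh-1G69D and 40.5, 40.9 and 89.9 CPM in WT (log2 fold change 0.79 ± 0.30 SE, adjusted p = 0.137 by edgeR). *Rpn11*, the deubiquitinase that removes the ubiquitin chain, was at 163, 210 and 181 CPM in GMR>Rh-1G69D and 82.0, 102 and 178 CPM in WT (0.61 ± 0.26 SE, adjusted p = 0.177 by edgeR). *Rpn3* was the lowest, with 94.0, 87.4 and 93.4 CPM in GMR>Rh-1G69D and 54.5, 49.6 and 105 CPM in WT (0.39 ± 0.27 SE, adjusted p = 0.389 by edgeR). WT replicate 3 overlapped the GMR>Rh-1G69D range for each of these lid genes, and it was the highest of all libraries for *Rpn3*.

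*Sem1*, a small lid subunit that the symbol rule does not take in, was at 23.0, 25.8 and 30.8 CPM in GMR>Rh-1G69D and 10.7, 8.95 and 23.5 CPM in WT. Its log2 fold change was 0.88 ± 0.35 (SE, adjusted p = 0.159 by edgeR), and WT replicate 3 lay above GMR>Rh-1G69D replicate 1. Without WT replicate 3 it was 1.44, with an adjusted p of 0.00626 by edgeR.

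Levels of different genes were compared in FPKM, which scales counts by library size and gene length. The somatic-type genes were well above the typical gene, with a median of 81.3 FPKM in GMR>Rh-1G69D and 53.7 FPKM in WT, against 8.93 and 8.19 FPKM over all tested genes. Core genes were higher per length than regulatory genes, with medians of 118 against 70.2 FPKM in GMR>Rh-1G69D and 63.1 against 46.3 FPKM in WT.

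*Prosalpha2* was the highest in both genotypes, with 284 ± 45.0 FPKM in GMR>Rh-1G69D and 161 ± 47.5 FPKM in WT (SD, n = 3 each). *Prosalpha5* came second in both, and *Rpn8*, a lid subunit, was the lowest in both, with 49.0 ± 3.37 FPKM in GMR>Rh-1G69D and 29.3 ± 10.2 FPKM in WT. The highest gene was 5.79 times the lowest in GMR>Rh-1G69D and 5.51 times in WT. Between these ends the order was loose: of 30 neighbouring pairs, 25 in GMR>Rh-1G69D and 29 in WT differed by less than their SD over libraries.

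Spread among replicates differed between genotypes. The coefficient of variation of FPKM had a median of 0.089 over the somatic-type genes in GMR>Rh-1G69D (0.015 to 0.263) and of 0.413 in WT (0.221 to 0.568). Over all tested genes the medians were 0.210 in GMR>Rh-1G69D and 0.303 in WT, so the proteasome genes were more even than the typical gene in GMR>Rh-1G69D and less even in WT. In WT without replicate 3 the median was 0.213 for the somatic-type genes and 0.235 for all tested genes. These values rest on 2 libraries and leave out the highest WT library of all 31 genes, so they cannot be set against those of 3 libraries. Between themselves, they show the somatic-type genes as no less even than the typical gene.

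**Figure D3:**
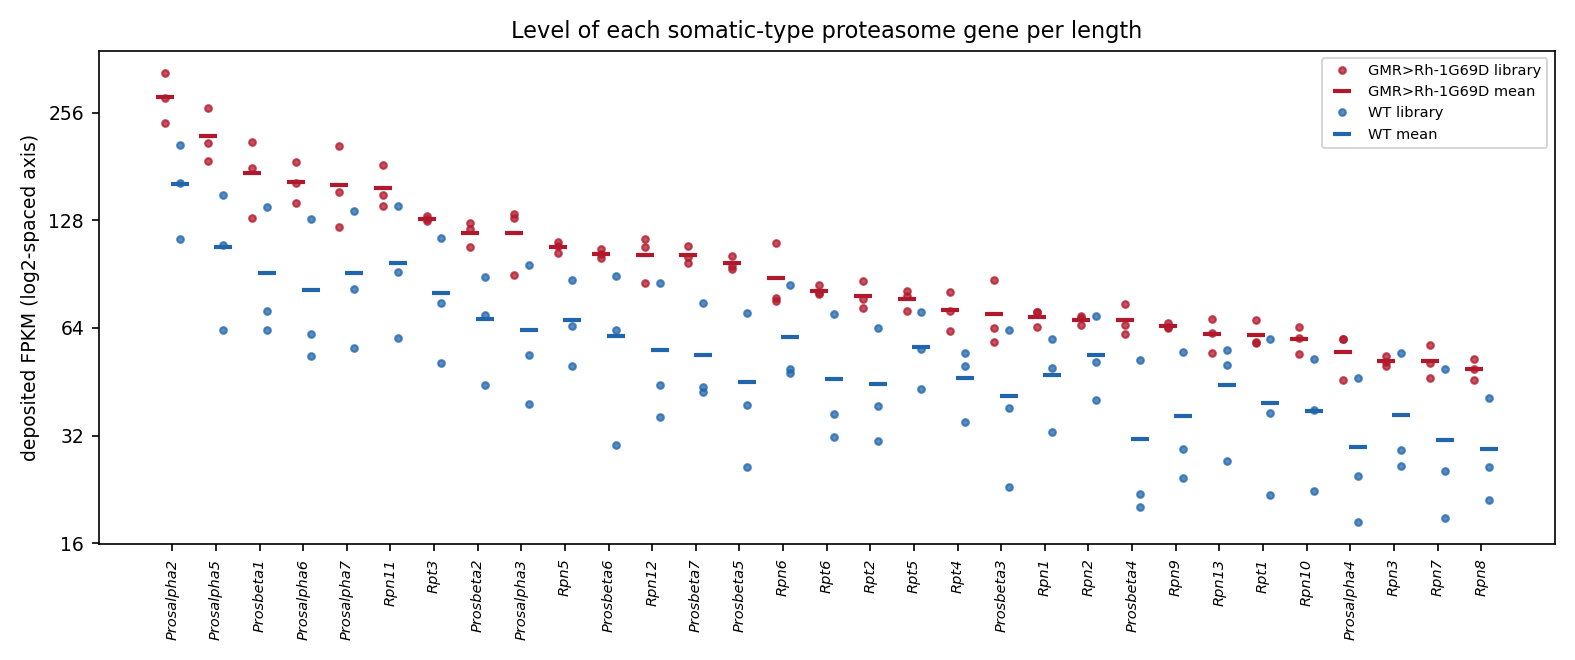
Deposited FPKM of each tested somatic-type gene on a log2-spaced axis, ordered by its mean in GMR>Rh-1G69D. Points are libraries and bars are means, with GMR>Rh-1G69D left of WT for each gene. *Prosalpha2* leads with 284 FPKM in GMR>Rh-1G69D and 161 FPKM in WT, and WT libraries are spread more widely than GMR>Rh-1G69D libraries.

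The somatic-type gene that could not be tested was *Prosalpha1* (dm6 2R, 7827303 to 7828678, minus strand), which is listed at 0 in all 6 libraries. An annotated copy, *Prosalpha1R*, listed in the count table as CG30382, lies 1735 bases away on the same strand (2R, 7830413 to 7831771) and is also listed at 0 in all 6 libraries. Every other alpha gene was plainly expressed, so these zeros give no level for this subunit. How reads that fit both copies were counted is not given in the sources used here, and its part in the zeros was not tested. For 13 of the 32 somatic-type genes an exon overlaps that of a gene on the other strand, and without a known strand setting the reads of such a pair cannot be told apart. The 12 tested genes with such an overlap had a median of 0.72 on the log2 scale, and the 19 without had 0.61.

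The testis-type paralogs were scarce in both genotypes. They made up 0.247, 0.405 and 0.327% of all proteasome counts in GMR>Rh-1G69D replicates 1, 2 and 3, against 0.962, 0.769 and 0.529% in WT replicates 1, 2 and 3. The genotypes did not overlap in this share, which has the somatic-type genes in its denominator. Of the 15 paralogs, 6 had no more than 3 counts in any library, among them *Prosalpha3T* with none at all, and 6 had enough counts to be tested. Those 6 include genes that passed the filter through their WT counts, so how many of them moved says nothing of the 15.

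*Rpn12R*, the paralog of the lid subunit *Rpn12* (3L, 15041631 to 15042570, minus strand), had 0, 0 and 0 counts in GMR>Rh-1G69D replicates 1, 2 and 3, against 35, 85 and 30 counts in WT replicates 1, 2 and 3. It fell in GMR>Rh-1G69D with an adjusted p of 0.00801 by edgeR, where 3.72% of all tested genes were called as lower. Set against a floor of 3 counts per library (0.125 CPM on average), it was at least 14.4-fold lower than the WT mean of 1.79 ± 0.773 CPM (SD, n = 3). The call was kept in 15 of 15 alternatives that tested it, WT replicate 3 left out included, with an adjusted p between 1.24e-05 and 0.0488. *Rpn12R* had enough counts for the test through WT alone, and the stricter filter on low counts removed it. The alternatives that tested it reuse the same libraries, so they are no separate support for the call.

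In WT, *Rpn12R* reached 3.41% of the FPKM of *Rpn12*. It lies inside *Sytbeta*, a synaptotagmin gene, which had 736, 556 and 614 counts in GMR>Rh-1G69D and 1779, 2570 and 1688 counts in WT (log2 fold change -1.52, adjusted p = 0.00340 by edgeR). Within 25000 bases of *Rpn12R*, 3 of 12 tested genes were called as lower and 0 as higher, where 3.72% of all tested genes were called as lower. Besides *Sytbeta* these were *CG43680*, with 0, 0 and 7 counts in GMR>Rh-1G69D and 181, 55 and 37 in WT (adjusted p = 0.0355 by edgeR), and *EAChm*, with 1, 0 and 0 counts in GMR>Rh-1G69D and 39, 65 and 26 in WT (adjusted p = 0.00977 by edgeR). *CG43680* and *EAChm* had enough counts for the test through WT alone, so the count of called neighbours is of little weight. The part of transcription across the locus was not tested.

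*Rpt4R*, the paralog of the ATPase *Rpt4* (3L, 11941912 to 11943485, plus strand), had 0, 3 and 3 counts in GMR>Rh-1G69D and 73, 46 and 30 counts in WT. Its genotypes did not overlap, and it fell in GMR>Rh-1G69D with an adjusted p of 0.0344 by edgeR. Its 6 counts in GMR>Rh-1G69D against 149 in WT, scaled by library size, give a ratio of 0.0456, with an exact 95% interval of 0.0165 to 0.102 that covers counting error only. The call was not firm: 7 of 15 alternatives kept it, with an adjusted p between 0.000724 and 0.193 over them. The call was lost when any library other than WT replicate 3 was left out. A pattern of all GMR>Rh-1G69D libraries below all WT libraries was seen in 14.6% of all tested genes. *CG5883*, which starts 155 bases away, was also called as lower, with 1, 2 and 7 counts in GMR>Rh-1G69D and 53, 157 and 42 counts in WT (adjusted p = 0.0209 by edgeR). It was the 1 gene called among 6 tested within 25000 bases of *Rpt4R*, where 3.72% of all tested genes were called as lower. Both *Rpt4R* and *CG5883* had enough counts for the test through WT alone, so this count is of little weight.

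Other low paralogs were below WT without passing the test. *Prosalpha4T1* had 1, 3 and 3 counts in GMR>Rh-1G69D and 20, 14 and 22 counts in WT, without overlap (adjusted p = 0.114 by edgeR), and the ratio of the summed, scaled counts was 0.142, with an exact 95% interval of 0.0544 to 0.311 from counting error only. *Rpt6R* had 7, 2 and 11 counts in GMR>Rh-1G69D and 43, 1 and 65 counts in WT, so WT replicate 2 was the lowest of all libraries (-2.40 ± 1.19 SE, adjusted p = 0.240 by edgeR).

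The paralogs with the highest counts did not pass the test. *Rpn13R* had 150, 159 and 100 counts in GMR>Rh-1G69D and 107, 287 and 205 counts in WT, with a log2 fold change of -0.32 and a 95% confidence interval of -1.20 to 0.56. *Rpt3R* had 84, 153 and 156 counts in GMR>Rh-1G69D and 75, 79 and 211 counts in WT, with 0.31 and an interval of -0.84 to 1.45. Both overlapped between genotypes, with adjusted p-values of 0.663 for *Rpn13R* and 0.758 for *Rpt3R* by edgeR, and the intervals are too wide to say that the levels were alike. *Rpn13R* was the paralog with the highest level relative to its counterpart, 8.77% of *Rpn13* FPKM in GMR>Rh-1G69D and 14.4% in WT.

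The remaining paralogs with 10 or more counts in some library were not tested. *Prosbeta2R2* had 0, 60 and 5 counts in GMR>Rh-1G69D and 7, 0 and 5 counts in WT. *Prosbeta4R2* had 0, 0 and 30 counts in GMR>Rh-1G69D and 0, 1 and 1 counts in WT, and its exons overlap those of the odorant receptor gene *Or23a* on the same strand. In each of these, 1 GMR>Rh-1G69D library held most of the counts, whereas *Prosbeta5R2* was at 0 in every GMR>Rh-1G69D library and had 5, 18 and 1 counts in WT.

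Of 18 markers of testis and male germ line, 8 had 10 counts or fewer in every library, and 4 of those were at 0 in all libraries. In the fit of all libraries 0 of 9 tested passed, where 4.96% of all tested genes were called in either direction. The summed level of the 18 was 40.0 to 54.9 CPM in GMR>Rh-1G69D and 40.5 to 70.5 CPM in WT, so the ranges overlapped. Without WT replicate 3, edgeR called 2 of 9 as lower and 0 as higher, in a fit that called 1199 of 12206 genes as lower.

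**Figure D4:**
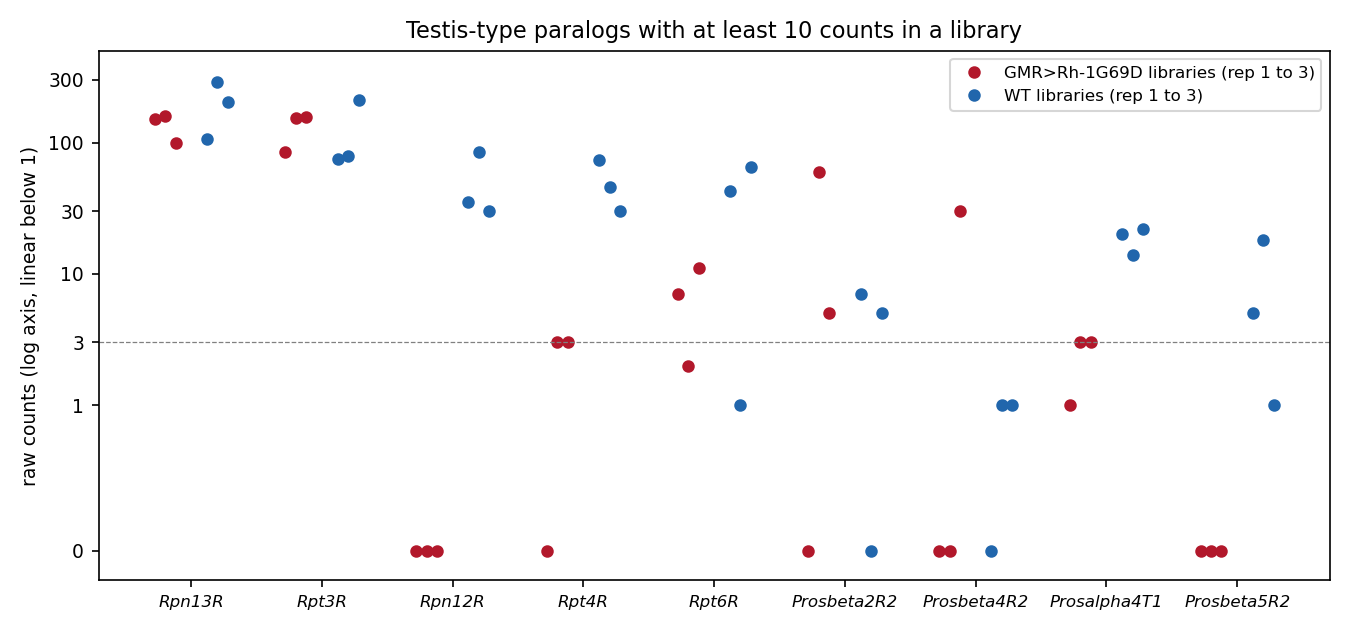
Raw counts per library of the 9 testis-type paralogs with at least 10 counts in some library, on a log axis that is linear below 1, with GMR>Rh-1G69D left of WT. The dashed line is the floor of 3 counts. *Rpn12R* is at 0 in every GMR>Rh-1G69D library and at 30 to 85 counts in WT, while *Rpn13R* and *Rpt3R* overlap between genotypes.

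Genes that assemble, activate or serve the proteasome were read from a list written by symbol. Of 17 symbols, 13 genes were found and tested, 11 had a log2 fold change above 0, and their middle value was 0.55. The edgeR test called 1 of 13 as higher, *REG*, and 0 as lower, where it called 1.24% of all tested genes as higher. Without WT replicate 3 the median was 0.82, and edgeR called 9 of 13 as higher and 0 as lower. That fit called 10.7% of all genes as higher. *REG* encodes the subunit of the 11S activator, a ring that opens the core without ATP. It was at 224, 170 and 183 CPM in GMR>Rh-1G69D replicates 1, 2 and 3, against 81.9, 101 and 124 CPM in WT replicates 1, 2 and 3. No values overlapped, and *REG* rose with a log2 fold change of 0.91 ± 0.20 (SE, adjusted p = 0.0233 by edgeR), a call kept in 12 of 16 alternatives with an adjusted p between 0.00223 and 0.119. It was lost without GMR>Rh-1G69D replicate 1 or 3 and without WT replicate 1 or 2, and kept without WT replicate 3 (adjusted p = 0.00419).

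*Pomp*, a chaperone that matures the core particle, was at 128, 127 and 126 CPM in GMR>Rh-1G69D and 61.0, 62.8 and 109 CPM in WT (log2 fold change 0.71 ± 0.23 SE, adjusted p = 0.102 by edgeR). *ntc* (nutcracker), an F-box protein known from the differentiation of sperm, was the lowest of the list, with 9.09, 6.57 and 6.14 CPM in GMR>Rh-1G69D and 18.5, 12.1 and 10.6 CPM in WT (-0.91 ± 0.35 SE, adjusted p = 0.143 by edgeR). The genotypes did not overlap for either gene, in opposite directions, and neither passed the test. Without WT replicate 3, *Pomp* was at 1.04 with an adjusted p of 0.00292 and *ntc* at -1.07 with an adjusted p of 0.0533 by edgeR.

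The genes that supply ubiquitin and the first enzyme of its cascade (5 tested) were all above 0, with a median of 0.65. The edgeR test called 0 of them, where it called 1.24% of all tested genes as higher. Without WT replicate 3 the median was 1.00 and 3 were called as higher, against 10.7% of all genes. *RpL40*, which makes ubiquitin fused to a ribosomal protein, was the highest, with 521, 808 and 654 CPM in GMR>Rh-1G69D and 365, 263 and 554 CPM in WT (0.75, adjusted p = 0.129 by edgeR, or 1.08 and 0.00980 without WT replicate 3). *Uba1*, the activating enzyme, was the lowest, with 530, 439 and 458 CPM in GMR>Rh-1G69D and 359, 379 and 471 CPM in WT (0.24, adjusted p = 0.479 by edgeR). WT replicate 3 was the highest WT library for both genes and overlapped the GMR>Rh-1G69D range, as it did for 15 of the 31 subunits.

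Regulators around CncC, the transcription factor known to activate proteasome genes in flies when the proteasome is impaired, were centred on a log2 fold change of 0.02 (median of 5 tested genes). Without WT replicate 3 the median was -0.03, and edgeR called 0 of them with or without that library. The fits called 586 of 11818 genes with that library and 2504 of 12206 without it. *maf-S*, the partner of CncC, was at 24.2, 21.1 and 20.0 CPM in GMR>Rh-1G69D and 8.14, 15.6 and 21.7 CPM in WT (0.52, adjusted p = 0.371 by edgeR). *cnc* itself was at 283, 370 and 360 CPM in GMR>Rh-1G69D and 570, 432 and 356 CPM in WT (-0.42, adjusted p = 0.260 by edgeR), a sign that turned to 0.06 with the gene length correction. For *cnc*, WT replicate 3 was within the GMR>Rh-1G69D range and the other WT libraries were above it. These counts are of the whole gene, and the paper names CncC among its longer isoforms. They therefore give neither the level of the CncC transcript alone nor the activity of its protein.

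**Figure D5:**
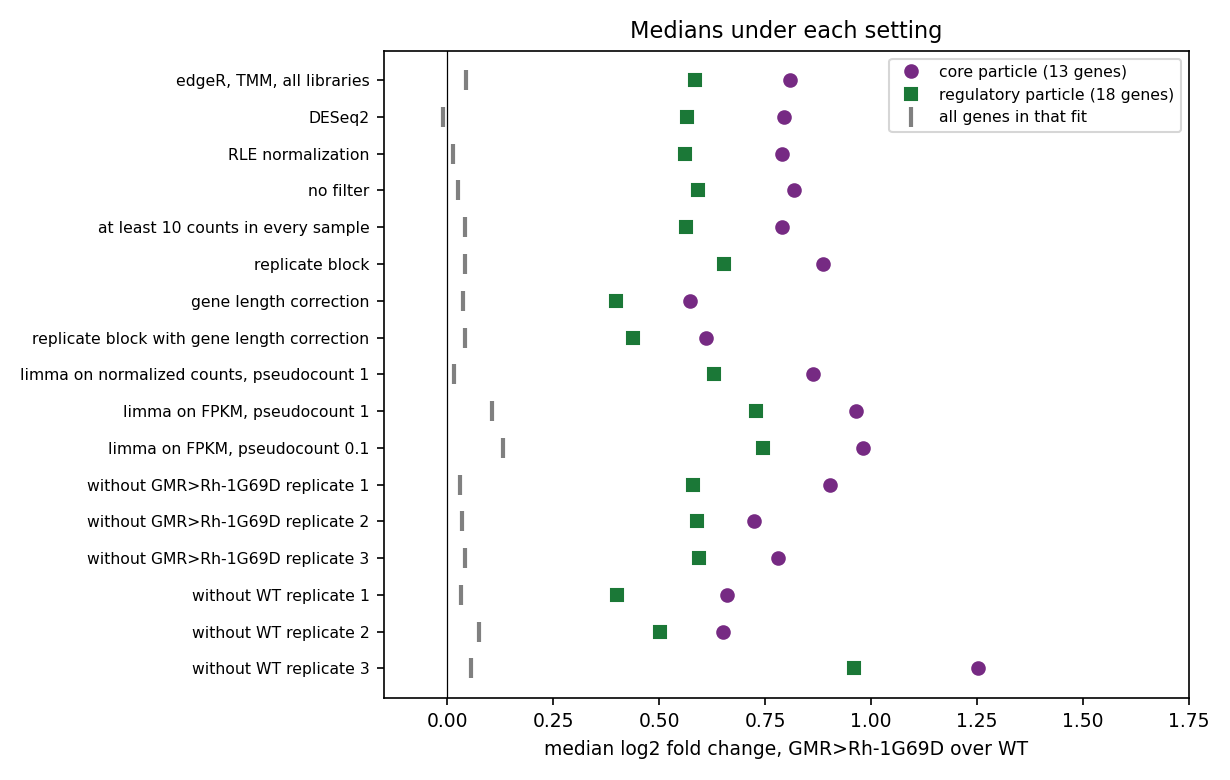
Median log2 fold change, GMR>Rh-1G69D over WT, of the core particle (circles), the regulatory particle (squares) and all genes of the same fit (ticks), for the edgeR fit of all libraries at the top and each alternative under it. The core is above the regulatory particle in every setting shown. The largest move is without WT replicate 3, where the core is at 1.25 and the regulatory particle at 0.96.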

How the data were processed

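The authors aligned paired-end reads to dm6 with STAR 2.6.1d and counted them on genes with featureCounts (Subread 1.6.3), per the paper's methods and the submitters' processing notes. The annotation release and the strand setting are not given in the sources used here. The deposited raw counts carry no scaling. In the deposited normalized counts, a signal per gene, the authors divided each library by its size factor, and the authors' FPKM scale counts by library total and by gene length. Gene lengths were taken from counts and FPKM, and coordinates from Ensembl annotation on dm6, to which 47 of 47 proteasome genes were matched.

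Counts were analysed with edgeR 4.0.16 in R 4.3.3: filterByExpr, TMM scaling, the quasi-likelihood F test by genotype, and Benjamini-Hochberg adjustment over the 11818 genes tested. A gene was called at an adjusted p under 0.05. The standard error is the log2 fold change over the square root of F. The pipeline was tested on simulated data. CPM are counts over the TMM-scaled library size. List values are counts and medians, with no list test.

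Named genes were those called, the highest and lowest of each subcomplex and list, the catalytic subunits, *Rpn11*, the ubiquitin receptors, and paralogs with 10 or more counts in a library. *Prosalpha1*, *Prosalpha2*, *Rpn8*, *Pomp*, *pros* and the neighbours of paralogs were named after their values were seen. Members and lists were chosen with earlier results of these data known.

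Alternatives were DESeq2 1.42.0, RLE scaling, other filters on low counts, a replicate block, a gene length correction (lowess, span 0.5), both together, limma 3.58.1 on log2 of the deposited normalized counts (pseudocount 1) or FPKM (pseudocounts 1 and 0.1), and each library left out. The list counts, the list medians and the coefficient of variation without WT replicate 3 were added after seeing the data. Protein and promoter sequences were not analysed here. Samples were labelled as separate samples, and the paper describes separate pools of larvae. With 3 libraries per genotype, intervals cover the spread between libraries only, and those of single counts cover counting error only. Figures were drawn with matplotlib 3.10.9.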

Additional observations from a re-analysis of the deposited data

How the results depend on the processing

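All 31 tested somatic-type genes had a log2 fold change above 0 in 16 of 16 alternatives, and none of their signs turned. The number of them called as higher, 0 in the edgeR fit of all libraries, was 5 with DESeq2, 1 with no filter (1.38% of all genes), 3 with limma on the normalized counts, 2 with at least 10 counts in every library (1.99%), 6 with a replicate block (2.14%) and 0 to 30 with 1 library left out, where 30 came without WT replicate 3. The number of proteasome genes called was 2 in the edgeR fit of all libraries, where 586 were called over all genes. It was 7 with DESeq2 (1437 over all genes), 5 with limma on the normalized counts (726) and 7 with a replicate block (734). It was 1 with the block and gene length correction together (566) and 1 with limma on FPKM at a pseudocount of 1 (403). At an adjusted p under 0.01 it was 1 (181), and with 1 library left out it was 1 to 32 (181 to 2504). The number of paralogs called as lower was 2, where 440 were called as lower over all genes. It was 1 with the block (481 over all genes), 1 with the block and length correction (393) and 1 with limma on FPKM at a pseudocount of 1 (233). With at least 10 counts in every library, a filter that removed both genes, it was 0 (557). It was 1 to 2 with 1 library left out (127 to 1199). Medians with 1 library left out were 0.50 to 1.11 for somatic-type genes, 0.65 to 1.25 for the core and 0.40 to 0.96 for the regulatory particle, highest without WT replicate 3. Over all genes, 586 were called by edgeR, 1437 by DESeq2, 357 by limma on FPKM at a pseudocount of 0.1, 181 at an adjusted p under 0.01 and 181 to 2504 with 1 library left out, the highest again without WT replicate 3. The sign of *cnc* turned to 0.0578 with the gene length correction and 0.05 with the block and that correction together. The cause of these moves was not tested. Same-numbered libraries of the genotypes came from separate pools, and their deviations correlated by -0.002, 0.074 and 0.162. For libraries with different numbers the correlations were -0.12 to 0.036. Whether same-numbered libraries shared a batch is not given in the labels and was not tested. Low counts limit the paralogs: at a floor of 3 counts the libraries resolve 0.0907 to 0.153 CPM.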
